A study of Rattus norvegicus with 6 samples.

Results

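The genes Fn1, Fmod and Thbs2 encode fibronectin, fibromodulin and thrombospondin 2, which are glycoproteins of the extracellular matrix that are not collagens. They make up 3 of the 29039 features in the deposited count table. They were chosen on the contrast described here, because the study called them lower after predator odor (PO) exposure: Fn1 and Fmod stand in its list of the leading lower genes, and Fn1 and Thbs2 in the deposited table of called genes. Their difference between the groups is therefore given as a description, with no test. The PO group was 3 male Sprague Dawley rats (libraries P8, P13 and P14) given a piece of towel that ferrets had slept on, and the control odor group was 3 such rats (C2, C3 and C4) given a clean piece. All 6 were about 10 months old, had been handled and given the control odor every day for 2 weeks, and were exposed for 20 minutes in the home cage. RNA came from frozen bilateral micropunches of the ventromedial hypothalamus (VMH), 1 library per rat, so each value is a mixture of every cell type in the punch.

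The extracellular matrix is the meshwork of secreted proteins and sugars outside cells. Fibronectin is a dimer that cells assemble into fibrils, and it is bound by integrins, the receptors that tie the matrix to the cytoskeleton. Fibromodulin is a small leucine-rich proteoglycan that sits on collagen fibrils and affects their thickness and cross-links. Thrombospondin 2 is a trimer that acts more as a signal than as a scaffold. It restrains vessel growth, and mice without it have misshapen collagen fibrils. In the brain, fibrillar matrix of this kind is mostly laid down in the meninges and around vessels, while the tissue between neurons is rich in hyaluronan and lecticans.

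The libraries held between 15835375 and 20316213 counts, and 16685 features had enough counts to be tested. Levels are CPM, the share of a library's counts on a fixed scale, adjusted by TMM, a factor that aligns most genes between libraries. Only 175 feature IDs have a gene name in the sources used here, mostly genes called by the study on these same rats. No marker of the VMH, of neurons, astrocytes, microglia, oligodendrocytes, endothelial cells or mural cells has a name among them, so the labelled tissue was not checked against markers.

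The start of Fmod is shown because Fmod had the largest difference of the 3 genes. Of the 3, Fmod was matched by symbol in the RefSeq promoter table (build GRCr8). Fn1 and Thbs2 were not. The 250 bases before the transcript start lie at chr13:48045317-48045566 on the plus strand, with the GC box in capitals.

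Fmod: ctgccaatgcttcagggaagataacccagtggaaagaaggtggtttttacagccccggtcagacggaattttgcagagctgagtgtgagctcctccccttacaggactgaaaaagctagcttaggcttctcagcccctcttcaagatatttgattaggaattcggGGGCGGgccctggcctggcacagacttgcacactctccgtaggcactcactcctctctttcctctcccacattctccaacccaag

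The GC box, searched as GGGCGG on both strands, occurs 1 time and begins 85 bases before the start. Such a box is present in 30.5% of the 33469 windows of this length in the table. A CCAAT box (CCAAT, both strands) occurs 1 time, near the far end of the window, against 34.0% of all windows. The TATA box (TATAAA), the CRE (TGACGTCA), the AP-1 site (TGANTCA), the E-box (CANNTG) and the Smad box (GTCTAGAC) have no match in these letters. They are present in 12.9%, 1.59%, 6.34%, 65.5% and 0.17% of all windows. The 2 matches do not overlap. The GC content of the window is 52.8%, and the median over all windows is 51.2%.

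Fn1 was lower in every PO library than in every control odor library, with little spread within either group. It had 17.5, 16.0 and 14.9 CPM in the PO libraries P8, P13 and P14, against 27.2, 24.9 and 25.9 CPM in the control odor libraries C2, C3 and C4. These values rest on 249 to 349 counts per PO library and 407 to 481 per control odor library. The means were 16.1 ± 1.29 CPM after PO and 26.0 ± 1.16 CPM after control odor (SD, n = 3 each). The log2 fold change was -0.69 (standard error 0.08, taken here and for the next genes from the spread of log2 CPM between rats), so the mean after PO was 0.619 of that after control odor. RefSeq lists 12 transcripts of Fn1, and the counts add up all of its splice forms.

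Fmod had the lowest ratio of PO to control odor among the 3 genes and the widest spread between rats. It had 4.80, 2.43 and 4.85 CPM in P8, P13 and P14, against 12.6, 8.95 and 18.9 CPM in C2, C3 and C4. Library P13 was the lowest of all and C4 the highest, and the groups did not overlap. The means were 4.03 ± 1.38 CPM after PO and 13.5 ± 5.04 CPM after control odor (SD, n = 3 each), a ratio of 0.298 and a log2 fold change of -1.75 (standard error 0.45). The fold change was -1.42 without C4 and -1.48 without P13.

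Thbs2 was the least abundant of the 3. It had 1.25, 1.88 and 1.85 CPM in P8, P13 and P14, against 3.68, 3.74 and 5.82 CPM in C2, C3 and C4. Here P8 was the lowest library, C4 was again the highest, and the groups did not overlap. The counts were 25, 34 and 31 in the PO libraries and 65, 61 and 108 in the control odor libraries. The means were 1.66 ± 0.355 CPM after PO and 4.41 ± 1.22 CPM after control odor (SD, n = 3 each), a ratio of 0.376 and a log2 fold change of -1.42 (standard error 0.29). Leaving out C4 gave -1.16, and leaving out P8 gave -1.23.

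**Figure D1:**
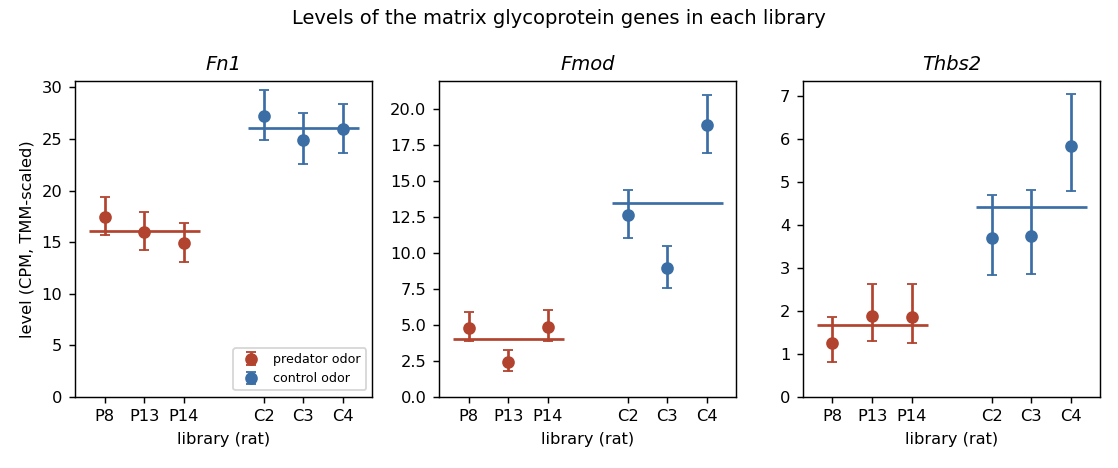
Level of Fn1, Fmod and Thbs2 in each library (vertical axes, TMM-scaled CPM from 0, with a scale of its own for each gene), PO libraries left and control odor libraries right. Points are libraries, bars are 95% Poisson intervals of the count, and horizontal lines are group means; in each panel the 3 PO points lie below the 3 control odor points, with Fmod between 2.43 and 4.85 CPM after PO and between 8.95 and 18.9 CPM after control odor.

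In each gene the 95% counting intervals of the PO libraries lay below those of the control odor libraries. This is a description only, since the 3 genes were chosen on this contrast. For Thbs2, the gene with the fewest counts, the 95% exact Poisson intervals ended at 2.63 CPM or lower in the PO libraries and began at 2.84 CPM or higher in the control odor libraries. For Fmod the same bounds were 6.02 and 7.56 CPM, and for Fn1 19.4 and 22.6 CPM. The intervals cover counting error only and leave out the spread between rats. Reads amplified by PCR are not independent molecules, so the intervals can be too narrow even for counting error. In all 3 genes the groups did not overlap, and 2208 of the 16685 tested genes (13.2%) likewise had all 3 PO libraries below all 3 control odor libraries. At an adjusted p of 0.05, the lower genes of edgeR's quasi-likelihood test held 1 of the 3 genes, Fn1, and made up 0.21% of the genes tested. Those of DESeq2, another count test, held all 3 and made up 2.08% of the genes it gave an adjusted p. Because the 3 were chosen on this contrast, nothing is read from these counts. Fn1 was not among the genes called by edgeR without C2, C3, C4 or P14, nor by limma voom. Thbs2 was called by edgeR without P13, with library totals alone and with no filter on low counts.

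The spread between rats of 1 group differed among the 3 genes. A call depends on this spread as well as on the fold, so it too is given as a description. The SD of log2 CPM within groups was 0.093 for Fn1. Counting error alone would give 0.077 at its counts. Among 1517 genes with a mean count within 1.25-fold of that of Fn1, the median SD was 0.127, and 23.7% had a lower one. For Fmod the SD was 0.557, against 0.144 from counting alone. The 1361 genes of like count had a median of 0.192, and 96.3% of them varied less than Fmod. Thbs2 stood between them with 0.355, against 0.222 from counting and a median of 0.309 over 1157 genes of like count, of which 63.6% varied less. Fmod varied widely in both groups, with an SD of 0.572 in PO and 0.541 in control odor libraries. Fn1 had 0.115 in PO and 0.064 in control odor libraries.

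**Figure D2:**
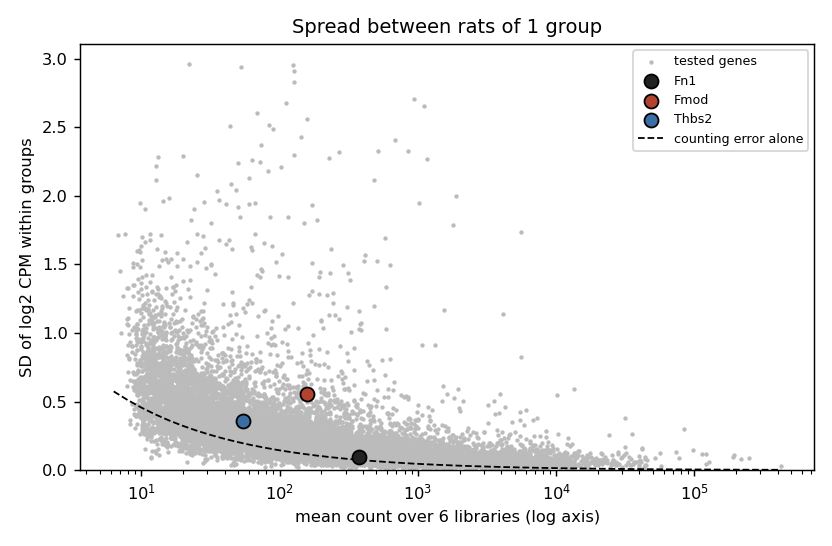
SD of log2 CPM within groups (vertical axis) against the mean count over 6 libraries (horizontal log axis) for each tested gene with counts in every library (grey) and for the 3 genes (coloured), with the SD that counting error alone gives as a dashed line. Fn1 lies just above the line at 0.093, Thbs2 lies at 0.355 and Fmod lies well above most genes of like count at 0.557.

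The order of the 3 genes by mean level per length differed between the groups, but C3 had the same order as the PO libraries. The deposited FPKM values divide counts by the length of a gene, which is 8159 bases for Fn1, 2943 for Fmod and 5728 for Thbs2 as the authors' tables imply. After PO, Fn1 stood at 1.93 ± 0.18, Fmod at 1.33 ± 0.446 and Thbs2 at 0.283 ± 0.060 FPKM (SD, n = 3). After control odor, Fmod stood at 4.67 ± 1.7, Fn1 at 3.26 ± 0.144 and Thbs2 at 0.786 ± 0.208 FPKM (SD, n = 3). The control odor libraries gave Fmod 4.40, 3.13 and 6.49 FPKM and Fn1 3.42, 3.15 and 3.21 FPKM, so the mean levels of these 2 genes lay within the spread of Fmod. Thbs2 was below both in all 6 libraries. Averaged over the 6 libraries, Fn1 had a higher FPKM than 60.4% of all features, Fmod than 62.0% and Thbs2 than 43.8%.

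Within a library, Fmod and Thbs2 were lower relative to Fn1 after PO. The ratio of Fmod to Fn1 in FPKM was 0.763, 0.421 and 0.902 in P8, P13 and P14, against 1.28, 0.995 and 2.02 in C2, C3 and C4. The ratio of Thbs2 to Fn1 was 0.102, 0.167 and 0.177 in the PO libraries, against 0.193, 0.213 and 0.320 in the control odor libraries. Neither ratio overlapped between the groups, though for Fmod the gap was small (0.902 in P14 and 0.995 in C3). The share of all genes whose ratio to Fn1 separates the groups was not computed. Because the 3 genes were chosen on this contrast, nothing is read from this separation. The ratio of Thbs2 to Fmod did overlap, with 0.134, 0.397 and 0.197 in the PO libraries and 0.150, 0.215 and 0.158 in the control odor libraries. Ratios within a library do not depend on how libraries are scaled to each other.

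**Figure D3:**
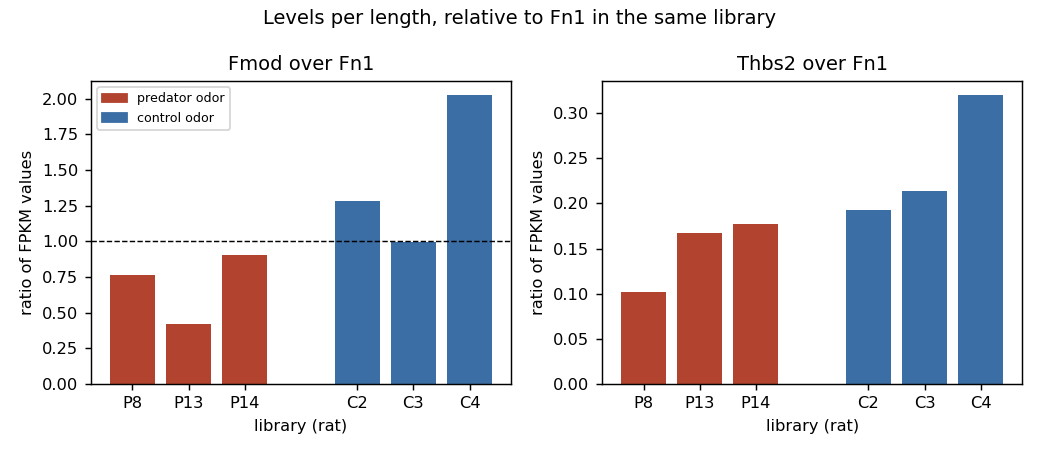
Ratio of Fmod to Fn1 (left) and of Thbs2 to Fn1 (right) in FPKM, 1 bar per library from 0, PO libraries left of control odor libraries; the dashed line marks equal levels per length. Fmod lies below Fn1 in all 3 PO libraries (0.421 to 0.902) and reaches 2.02 times Fn1 in C4, and Thbs2 is at most 0.320 of Fn1.

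Likeness between the 3 genes was computed over all libraries and within groups. Over all 6 libraries Pearson's r of log2 CPM was 0.88 for Fn1 with Fmod, 0.86 for Fn1 with Thbs2 and 0.86 for Fmod with Thbs2, values that the gap between the groups largely sets. On deviations from the group means the same pairs had r of 0.16, -0.55 and 0.20. These are descriptions over 6 libraries that share one scaling, with 4 degrees of freedom left after the group means. Since the spread of Fn1 within groups was close to its counting error, the values on deviations do not show whether the genes share a pattern between rats. Fmod was lowest in P13 and highest in C4, Fn1 was lowest in P14 and highest in C2, and Thbs2 was lowest in P8 and highest in C4.

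For each gene, the named genes with the highest r are given as a description. Most named genes were called by the study in this contrast, as were Fn1, Fmod and Thbs2. A high r on log2 CPM was thus largely set in advance by the gap between the groups. On deviations, with 4 degrees of freedom left, many genes had a high r. Nothing is read from these likenesses. Genes given below as most like or nearest are so among named genes only, and ranks count all genes. Fmod was most like Ngfr, the low-affinity receptor of neurotrophins, with r of 0.989 on log2 CPM and 0.990 on deviations, rank 4 and rank 16 among 16642 genes with counts in every library. Ngfr had 9.71, 7.01 and 9.75 CPM in P8, P13 and P14, against 20.3, 16.4 and 22.9 CPM in C2, C3 and C4, which is the same order of the 6 libraries as that of Fmod. On log2 CPM, Scn9a (a sodium channel of nociceptors), Gria2 (an AMPA receptor subunit), Crabp2 (a binding protein of retinoic acid) and Fndc9 came next, with r from 0.960 to 0.985. The same 5 led the named genes on deviations, with r down to 0.813 for Fndc9 (rank 1099).

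Fn1 on log2 CPM was most like RT1-Ba, an MHC class II chain, with r of 0.988 (rank 11). Fam171a1, Mt-nd4l, Epas1 (a hypoxia-inducible transcription factor) and Col3a1 followed with r from 0.979 to 0.987. On deviations the named genes nearest to Fn1 were Ppp3cb (a calcineurin subunit, 0.979, rank 31) and Col1a1 (0.955, rank 104). Cd74 (the invariant chain of MHC class II, 0.951, rank 116), RT1-Ba (0.944, rank 141) and RGD1311744 (0.890, rank 373) followed. Many genes without a name were thus nearer. Col1a1 encodes a chain of collagen I. It had 23.1, 11.8 and 9.69 CPM in P8, P13 and P14, against 45.2, 29.4 and 41.9 CPM in C2, C3 and C4. Col1a1 ordered the 6 libraries as Fn1 did. Fn1 varied within groups by little more than its counting error, so neither r on deviations nor this order shows a pattern shared between rats.

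Thbs2 on log2 CPM was most like Cilp, a secreted matrix protein known from cartilage, with r of 0.966 (rank 31). Ahi1, Colec12 (a scavenger receptor), Col6a1 and Fndc9 had r from 0.929 to 0.962. Cilp had 0.200, 0.331 and 0.299 CPM in P8, P13 and P14, against 1.59, 0.858 and 1.78 CPM in C2, C3 and C4. These levels were below those of Thbs2 in every library, so they rest on fewer counts and carry more counting error. DESeq2 gave Cilp no adjusted p. On deviations the nearest named gene to Thbs2 was Spef1, with r of 0.946 (rank 96). Spef1 encodes a protein of cilia and had a higher mean after PO. Ahi1, Gstm1, Gstt3 and LOC688613 came next, with r from 0.746 to 0.807 (ranks 634 to 960). Over all genes the median r on log2 CPM was 0.02 to 0.06 for the 3 genes, and between 1.32% and 3.49% of genes had r above 0.9. Since the named genes were mostly called in this contrast, nothing is read from how far they lie above these medians. On deviations the share above 0.9 was 1.98% for Fn1, 2.94% for Fmod and 1.43% for Thbs2.

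Of the other matrix genes, 173 symbols in 10 lists were looked up, and 8 have a name here. The lists held fibronectin receptors, thrombospondins and their receptors, small leucine-rich proteoglycans, other glycoproteins, collagens, collagen processing, matrix proteases, the TGF-beta pathway and brain matrix. No other thrombospondin, small leucine-rich proteoglycan, integrin or syndecan has a name, so neither gene family nor receptors of the 3 genes could be described. The 8 are 7 collagen chains and Mmp14, a membrane-bound metalloproteinase that cuts collagen and fibronectin. Of these, 3 fell after PO in edgeR's test and 0 rose, against 0.21% of all tested genes that fell. All 8 were lower with an unadjusted p under 0.05, as were 9.62% of all tested genes. The 3 were Col3a1 and Col5a1 (adjusted p = 0.027 each from edgeR) and Col5a2 (adjusted p = 0.0481 from edgeR). Of the 8 none passed without C2 or C4 (6 had an unadjusted p under 0.05 each time), 1 without C3 or P14, and none in limma voom. The 8 have a name here because the study called them in this contrast, so nothing is read from the count.

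Mmp14 had 17.8, 24.4 and 13.4 CPM in P8, P13 and P14, against 28.9, 33.7 and 31.9 CPM in C2, C3 and C4. Its log2 fold change was -0.76, and edgeR gave an adjusted p of 0.105. With 1 library left out, the adjusted p from edgeR was 0.0133 without P13 and between 0.109 and 0.271 otherwise. The 7 collagen chains had a median log2 fold change of -1.39, against -0.01 over all tested genes. Their summed level was 76.2, 59.4 and 56.1 CPM in P8, P13 and P14, against 144, 126 and 140 CPM in C2, C3 and C4. Per length, Col6a1 led them with 5.06 ± 0.633 FPKM after PO and 8.27 ± 0.089 FPKM after control odor (SD, n = 3). Col5a2 had 3.90 ± 0.19 and Col1a1 2.498 ± 1.23 FPKM after PO. After control odor these had 5.99 ± 0.435 and 6.81 ± 1.43 FPKM (SD, n = 3). In control odor libraries the mean level of Fmod per length was thus below that of these 3 chains. The log2 difference of the summed 7 chains was -1.11 (standard error 0.15). Beside this sum Fn1 had a smaller difference, and Fmod and Thbs2 had larger ones. The single chains ran from -1.55 (Col6a3) to -0.55 (Col5a2), around their median of -1.39. Fn1 (-0.69) and Thbs2 (-1.42, standard error 0.29) lay within this range, and Fmod (-1.75) lay beyond it. These differences were not tested against each other.

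In the deposited KEGG table, which lists only called genes, Fn1 stood under 5 of 28 pathways and Thbs2 under 4. They shared 3, ECM-receptor interaction, focal adhesion and PI3K-Akt signaling. In the GO table, Fn1 stood under 186 of 1132 terms, Thbs2 under 51, and both under 39. Among the shared terms were basement membrane and cell adhesion. Fmod stood under none in either table, and it is not in the deposited table of called genes. The GO term extracellular matrix held Fn1, Thbs2 and 7 other called genes. These had log2 fold changes from -2.34 (Abi3bp) to -0.55 (Col5a2), with a median of -1.38. In edgeR's test 3 of the 7 fell, against 0.21% of all tested genes. The 7 are listed there because the study called them in this contrast, so nothing is read from these values.

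Leptomeningeal fibroblasts are the collagen-making cells of the inner meninges. Of 20 markers of these cells, 9 have a name here. All 9 had their PO libraries below their control odor libraries, against 13.2% of all tested genes. In edgeR's test 3 of the 9 fell, Slc22a6, Slc6a13 and Crabp2 (adjusted p = 0.0481 each from edgeR), against 0.21% of all tested genes. With 1 library left out, edgeR called 5 of the 9 without P8 (Slc22a6 the only one of the 3), 1 each without C2, C3, P13 or P14, and none without C4, where 7 had an unadjusted p under 0.05. DESeq2 called 8 of the 9, and limma voom none, with 9 at an unadjusted p under 0.05. Their summed level was 78.3, 46.0 and 38.3 CPM in P8, P13 and P14, against 187, 152 and 238 CPM in C2, C3 and C4, and none was at 0 counts in any library (the lowest count was 2, of Osr1). The most abundant per length was Igfbp2, with 7.49 ± 4.83 FPKM after PO and 42.4 ± 13.2 FPKM after control odor, followed by Crabp2 with 4.44 ± 0.578 FPKM after PO and 12.97 ± 4.63 FPKM after control odor (SD, n = 3). The log2 difference of the sum was -1.87 (standard error 0.36), against -0.69 for Fn1, -1.75 for Fmod and -1.42 for Thbs2.

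C4 was highest and C3 lowest of the control odor libraries in both the marker sum and Fmod. In the PO group P14 was lowest in the sum but P13 in Fmod. On deviations from the group means, the 9 markers had a median r of 0.69 with Fn1, 0.66 with Fmod and -0.21 with Thbs2. The single markers differed widely, with r from 0.05 to 0.95 for Fn1, -0.43 to 0.87 for Fmod and -0.47 to 0.45 for Thbs2. Only 2, 1 and 0 of the 9 were above 0.8. The spread of Fn1 within groups was close to its counting error, so its values do not show a pattern shared between rats. The markers share Col1a1 and Col1a2 with the 7 collagen chains. The 9 have a name here because the study called them in this contrast, and nothing is read from their counts of calls. The part of such cells in the values of Fn1, Fmod and Thbs2 was not tested. In bulk tissue, fewer cells of a type in the punch and less RNA per cell cannot be told apart. The only other marker with a name, Folr1 of the list for ependymal and choroid cells, had 8.11, 17.2 and 8.74 CPM in P8, P13 and P14, against 5.15, 3.80 and 3.77 CPM in C2, C3 and C4 (adjusted p = 0.077 from edgeR).

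**Figure D4:**
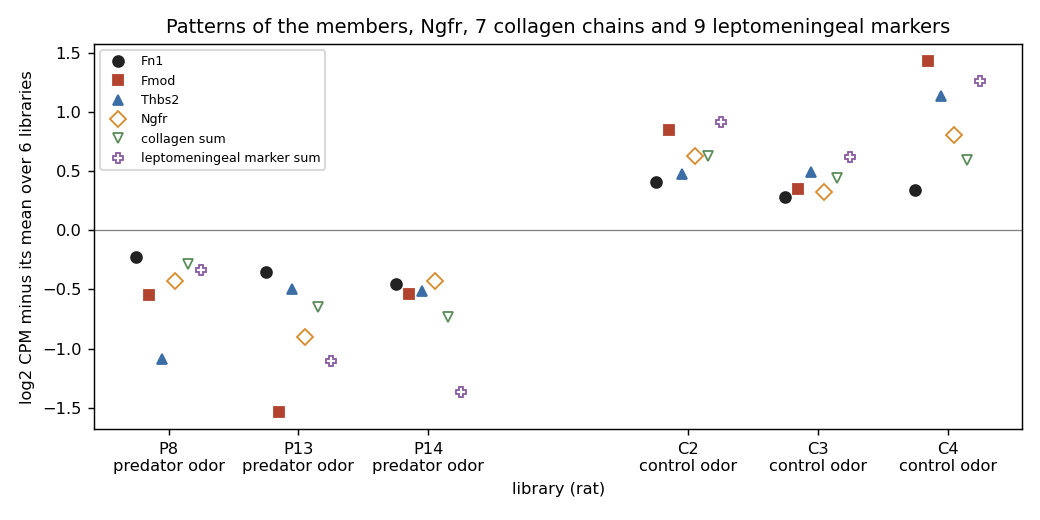
Log2 CPM minus its mean over 6 libraries (vertical axis) for Fn1, Fmod and Thbs2 (filled), and for Ngfr, the sum of 7 collagen chains and the sum of 9 leptomeningeal markers (open), in the 3 PO libraries (left) and the 3 control odor libraries (right). Fn1 runs from -0.46 to 0.41, while Fmod runs from -1.53 in P13 to 1.43 in C4 and Thbs2 from -1.08 in P8 to 1.13 in C4.

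The direction of the 3 fold changes was the same in each way of computing them. Over the 6 fits that left out 1 library, Fn1 lay between -0.74 and -0.64, Fmod between -1.97 and -1.42, and Thbs2 between -1.53 and -1.16. Fmod had a lower value than Thbs2 in all settings shown except without P13, where Fmod had -1.48 and Thbs2 -1.51. On the log2(FPKM + 1) scale, which understates changes of low genes, Thbs2 had -0.47, Fn1 -0.54 and Fmod -1.26, so that Thbs2 no longer exceeded Fn1 in size.

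**Figure D5:**
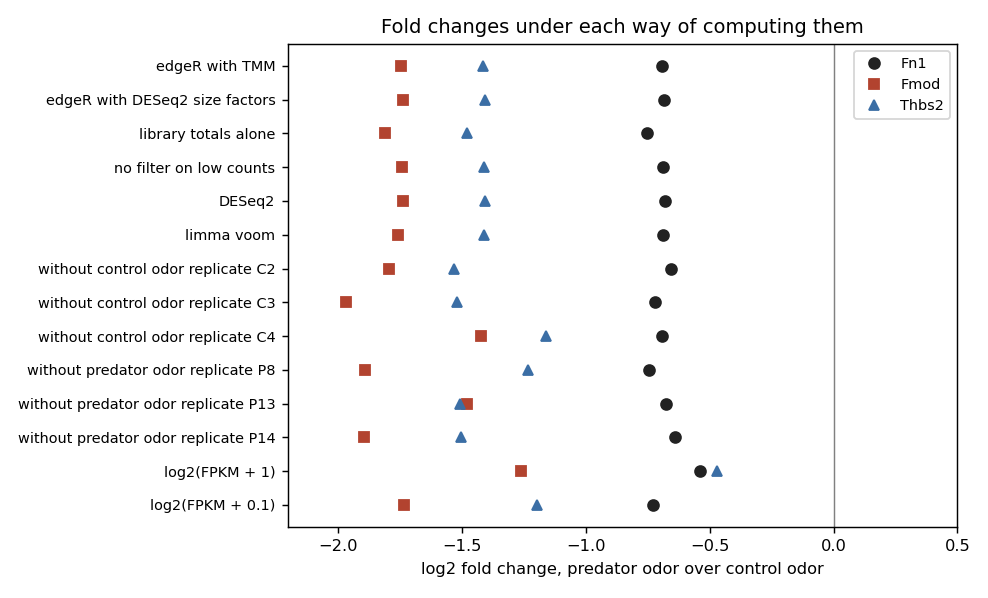
Log2 fold change, PO over control odor, of Fn1, Fmod and Thbs2 (horizontal axis) under each normalization, filter, test, left-out library and FPKM pseudocount (rows). All points lie left of 0, Fn1 stays between -0.75 and -0.54, and Thbs2 moves to -0.47 on the log2(FPKM + 1) scale.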

How the data were processed

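The authors deposited raw counts per gene and library, with HTSeq v0.6.1 (union mode) as the counter and HISAT2 v2.1.0-beta as the aligner of the filtered reads. The genome was Rnor_5.0, with Ensembl version 79. The sources used here do not give whether counting used strand. The deposited FPKM values fit these same counts, with 1 length per gene and the total of all counts in a library. The authors' own fold changes and p-values were not used; from those tables only IDs, gene names and pathway membership were read.

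Counts were fitted with edgeR 4.0.16 in R 4.3.3 (TMM, filterByExpr, robust quasi-likelihood fit, Benjamini-Hochberg adjustment over 16685 genes), PO over control odor, without covariates. The labels give no batch or pairing. DESeq2 1.42.0 and limma 3.58.1 (voom), other scalings, no filter on low counts, each library left out, and FPKM with a pseudocount of 1 or 0.1 were the alternatives. The 3 tests were run on simulated data with 200 changed genes. Python 3.11.15 was used for the rest, with Matplotlib 3.10.9 for figures, SciPy 1.17.1 for intervals, and NumPy 2.4.6 and pandas 2.3.3 for tables.

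IDs of the 3 genes came from the study's gene list and the deposited table of called genes. Names of other IDs came from these and from Entrez IDs in the KEGG table (31 of 33 pairs checked had the same symbol; the ID named AABR07068316.1 was read as Col6a3 on that basis). Genes were named by rule: the 3 genes, the tested genes of lists with 5 or fewer, otherwise those past edgeR and the 3 highest in FPKM (2 for marker lists), and the 5 named genes nearest in pattern. Abi3bp, Osr1 and Folr1, and the genes of the closing paragraph, were picked with their values already known. The 3 genes and all lists were chosen with earlier results of these data known.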

Additional observations from a re-analysis of the deposited data

How the results depend on the processing

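Over all genes edgeR called 59, against 103 with library totals alone, 433 with no filter on low counts, 865 with DESeq2 and 3 with limma voom (3253 had an unadjusted p under 0.05 there), and between 9 (without C2, C4 or P14) and 266 (without P13) with 1 library left out. Library totals alone gave 16 higher and 87 lower genes, TMM 24 higher and 35 lower, and moved the median log2 fold change of all genes to -0.08. Of the 8 named matrix genes edgeR called 3, against 5 with no filter, 6 with DESeq2 and 0 with limma voom (8 had an unadjusted p under 0.05), and between 0 and 4 with 1 library left out. On log2(FPKM + 1) the log2 fold change was -0.54 for Fn1 and -0.47 for Thbs2, against -0.69 and -1.42 from counts, as the pseudocount shrinks low levels. The other 37 values of the fold changes of Fn1, Fmod and Thbs2 moved by less than the spread between rats. The cause of the changes in the numbers of calls was not tested. Thbs2 rests on 25 to 108 counts per library, and its counting error is the largest of the 3 genes.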

Other observations

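Some other named genes of secreted or matrix-bound proteins were picked after their values were seen and form no list with a test. They lay on both sides. Cck, the peptide cholecystokinin, had 9.91, 11.0 and 7.78 CPM in P8, P13 and P14, against 6.29, 5.27 and 3.83 CPM in C2, C3 and C4 (adjusted p = 0.0709 from edgeR). Klk6, a secreted protease, had 36.1, 34.1 and 52.3 CPM in P8, P13 and P14, against 24.7, 26.0 and 19.4 CPM in C2, C3 and C4 (adjusted p = 0.0941 from edgeR). Enpp2, the secreted enzyme autotaxin, had 90.9, 100.1 and 99.3 CPM in P8, P13 and P14, against 75.7, 78.7 and 55.5 CPM in C2, C3 and C4 (adjusted p = 0.108 from edgeR). Gpc4, a heparan sulfate proteoglycan of the cell surface, had 24.4, 21.1 and 19.7 CPM in P8, P13 and P14, against 30.6, 35.1 and 37.2 CPM in C2, C3 and C4 (log2 fold change -0.66, adjusted p = 0.0396 from edgeR, and 0.0688, 0.116, 0.0858 and 0.0775 without C2, C3, C4 or P14). Abi3bp, a matrix protein that binds the SH3 domain of Abi3, stood at 0 in P8 and at 0.552 and 0.419 CPM in P13 and P14, against 1.19, 1.90 and 1.78 CPM in C2, C3 and C4 (adjusted p = 0.101 from edgeR). C7, a complement component, had 9.96, 3.31 and 4.49 CPM in P8, P13 and P14, against 19.1, 15.1 and 14.3 CPM in C2, C3 and C4 (adjusted p = 0.16 from edgeR). With 1 library left out, edgeR gave C7 an adjusted p of 0.0022 without P8 and between 0.166 and 0.367 otherwise. Cpz, a secreted carboxypeptidase, had 2.60, 0.772 and 1.68 CPM in P8, P13 and P14, against 3.74, 4.66 and 4.58 CPM in C2, C3 and C4 (adjusted p = 0.0907 from edgeR). For Cpz the left-out fits of edgeR gave an adjusted p of 0.0442 without P8 and between 0.0862 and 0.233 otherwise.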
